A study of Mus musculus with 6 samples.

Results

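The data described here are the multi-way contacts of the R2 enhancer of the mouse α-globin locus, compared between erythroid cells of D3839 and wild type (WT) mice. The comparison covers whole profiles and pairs of elements other than the contact foci already quantified for this viewpoint. Some of its bins and windows nevertheless lie at those foci. The data come from 6 of the 12 tables of the series, those of the R2 viewpoint, with 3 biological replicates of each genotype. Counts were placed by the midpoint of each restriction fragment in 180 bins of 1 kb between chr11:32070001-32250000 (mm9), of which 176 were analysed once the stretch around R2, from 32149000 to 32153000, was left out. The members are these bins and 6 elements, namely the enhancers R3 and Rm, the CTCF site HS-29, the embryonic globin gene *Hba-x* and the theta globin genes *Hbq1b* and *Hbq1a*, which form 15 pairs.

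Tri-C is a chromosome conformation capture method in which cells are fixed with formaldehyde, the DNA is cut with NlaIII and ligated, and fragments that hold a chosen viewpoint are enriched with oligonucleotides and sequenced. A read that holds the viewpoint together with at least 2 other fragments, called reporters, records a set of sites that met on the same allele. All 6 samples were Ter-119+ cells, selected with an antibody to this erythroid surface marker out of spleens from female C57BL/6 mice made anaemic with phenylhydrazine. The D3839 mice lack the core of the CTCF motif at both HS-38 and HS-39, removed with TALEN and CRISPR-Cas9 nucleases, and the WT mice are unedited. The sources used here state neither the age of the mice nor whether the deletions were homozygous. Contact data hold no expression of marker genes, so the cell type could not be checked, and counts per NlaIII fragment do not show the small deletions, so the genotype labels could not be checked either. WT libraries were made with the NEBNext DNA Library Prep Master Mix and D3839 libraries with the NEBNext Ultra II kit, and kit and genotype cannot be told apart in any comparison below.

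CTCF is a zinc finger protein that binds a directional DNA motif and, together with cohesin, sets the limits of the domains within which enhancers and promoters meet. At the α-globin locus the enhancers R1, R2, R3 and Rm lie in introns of *Nprl3*, a housekeeping gene on the minus strand, and R4 lies just beyond its start. They act on the adult α-globin genes *Hba-a1* and *Hba-a2* downstream, while CTCF sites upstream (HS-38, HS-39, HS-29) and downstream (the theta genes, HS+44, HS+48) flank the domain. Upstream of the deleted sites lie *Mpg*, a DNA glycosylase of base excision repair, *Rhbdf1*, an inactive rhomboid protease, and *Snrnp25*, a component of the minor spliceosome.

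The matrix of reporter pairs had 8801, 7927 and 12153 contacts in the 3 WT samples, in the order of their replicate numbers, as in all lists of 3 values below, and 14719, 13321 and 14822 in the D3839 samples. These were 42.1% to 45.2% of all chromosome 11 contacts in the WT tables and 57.5% to 61.2% in the D3839 tables, so the choice of total matters. Shares below are of the matrix unless all chromosome 11 contacts are named as the total, and on that total most levels were higher in D3839. Contacts within one bin made up 38.3% to 48.3% of the WT matrices and 31.6% to 41.9% of the D3839 matrices. A limit of 3 counts, for counting error alone, came to between 0.0247% and 0.0378% of a WT matrix and between 0.0202% and 0.0225% of a D3839 matrix. Contacts from one multi-reporter read are not independent of each other.

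Since the comparison turns on the flanks of a CTCF domain, the mm9 sequence of the region was searched on both strands for AGGNGGCGC, letters taken from the core of the CTCF motif. There were 11 matches, in 9 of the 180 bins of 1 kb (5%). The windows of 5 bins around *Hbq1b* and *Hbq1a* held 1 match each, just ahead of the annotated start of each gene, and the window of HS+44 held 2. Of the other windows compared below, that of the *Rhbdf1* start held 2 and those of the *Mpg* and *Snrnp25* starts 1 each, and 3 matches lay in no such window. The 4 at *Hbq1b*, *Hbq1a* and HS+44 are shown because the CTCF sites of the downstream flank lie there. They are read 5′ to 3′ from the minus strand, with the match in capitals. *Hbq1b* is at chr11:32186908-32186964, *Hbq1a* at chr11:32200013-32200069, and the HS+44 matches at chr11:32221311-32221367 and chr11:32221369-32221425.
Hbq1b: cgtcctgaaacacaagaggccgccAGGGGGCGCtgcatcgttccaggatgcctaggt
Hbq1a: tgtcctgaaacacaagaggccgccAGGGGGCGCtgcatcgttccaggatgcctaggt
HS+44, first match: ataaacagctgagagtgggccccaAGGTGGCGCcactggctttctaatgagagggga
HS+44, second match: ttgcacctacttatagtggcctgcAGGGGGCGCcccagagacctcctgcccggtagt

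The theta gene stretches were identical in 56 of 57 bases, and the promoters of both genes aligned with 94.7% identity. The theta genes are copies of each other, so reads from their near-identical parts cannot be assigned with certainty. A match is a description of letters and not evidence of a bound site, and its absence elsewhere says nothing about CTCF there.

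Reporter ends were the first measure. Each contact has 2 ends, and the share of ends lying upstream of R2, towards *Mpg* and *Rhbdf1*, was 28.6%, 28.1% and 27.8% in WT and 34.1%, 34.9% and 34.2% in D3839. All D3839 samples lay above all WT samples, with means of 28.1% ± 0.407 (SD, n = 3) and 34.4% ± 0.429 (SD, n = 3), a difference of 6.25 percentage points (exact permutation test, two-sided, p = 0.1, the smallest p that 3 against 3 samples allow). The log2 ratio of upstream to downstream ends, which does not depend on the total used, averaged -1.35 (SD 0.0290) in the WT samples and -0.93 (SD 0.0274) in the D3839 samples, again without overlap (p = 0.1 by the same exact test). Relative to all chromosome 11 contacts, both sides were higher in D3839, by 1.66 times upstream and 1.24 times downstream, with no overlap between the groups on either side. The imbalance between the sides is the same on both scales by construction, whereas the downstream side as a whole was lower only relative to the matrix.

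Pairs of ends followed the same division. Both ends lay upstream in 20.9% ± 0.775 of WT contacts and 25.2% ± 0.718 of D3839 contacts (SD, n = 3). Both lay downstream in 64.6% ± 1.25 and 56.4% ± 1.46, and 1 end lay on each side in 14.4% ± 1.92 and 18.4% ± 2.14 (SD, n = 3). The groups did not overlap for any of these 3 shares (exact permutation test, two-sided, p = 0.1 for each). Relative to all chromosome 11 contacts all 3 were higher in D3839 without overlap, by 1.63, 1.18 and 1.73 times, so the direction of the downstream pairs depends on the total.

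Across single bins, 174 bins with at least 10 ends over the 6 samples were tested with edgeR's quasi-likelihood test, with Benjamini-Hochberg adjustment over all of them. Ends rose in 3 bins (1.72%) and fell in 1 (0.575%) at an adjusted p below 0.05. At an unadjusted p below 0.05, 18 were higher and 11 lower. The D3839 and WT samples did not overlap in 21 bins that were higher (12.1%) and 11 that were lower (6.32%). Of the 78 tested bins upstream of R2, 59 had a log2 fold change above 0, with a median of 0.40, and of the 96 downstream 31 did, with a median of -0.18. On the scale of all chromosome 11 contacts 38 bins rose and 1 fell at an adjusted p below 0.05. The median over all bins moved there from 0.01 to 0.46. The medians were 0.83 upstream and 0.24 downstream, so the median downstream bin was lower only relative to the matrix.

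**Figure D1:**
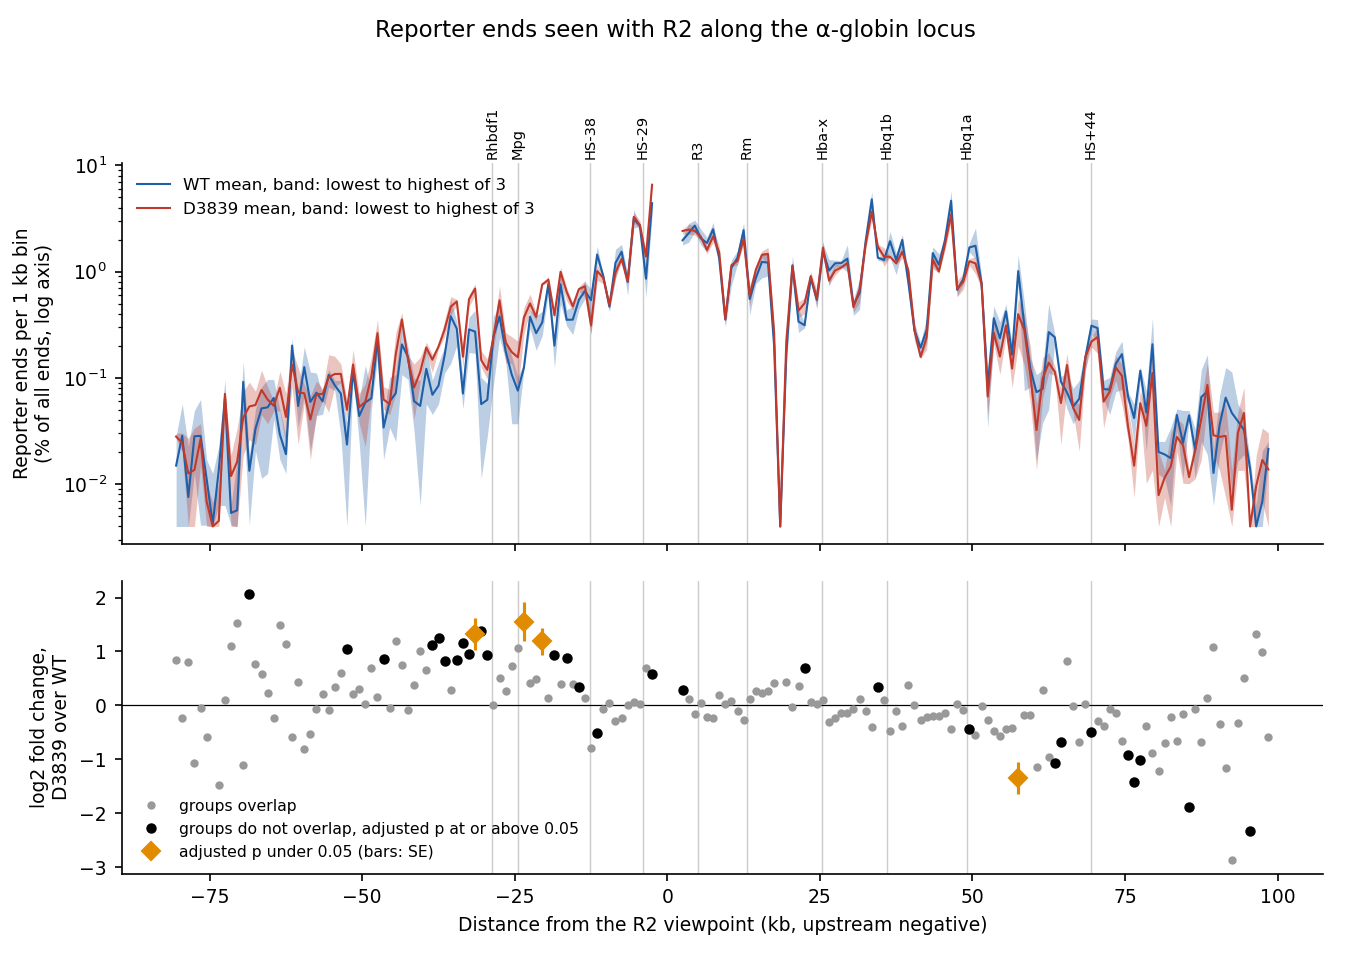
Top, share of reporter ends in each 1 kb bin (percent of all ends, log axis) against the distance from R2 in kb, as the mean and the range of 3 WT and 3 D3839 samples, with shares below 0.004% drawn at 0.004%. Bottom, log2 fold change of D3839 over WT from edgeR, relative to the matrix total, with the 3 bins that rose and the 1 that fell as diamonds with their standard errors. Most points between *Rhbdf1* and HS-38 lie above 0 and most beyond *Hbq1a* below it, and relative to all chromosome 11 contacts the median of the downstream bins was 0.24. The dip to the floor past R4 is a bin without a fragment midpoint.

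The 3 bins that rose lay in and beside the upstream genes. The bin from 32119001, inside *Rhbdf1* and 31.5 kb from R2, held 0.170%, 0.214% and 0.432% of ends in WT and 0.598%, 0.709% and 0.769% in D3839. Every D3839 sample exceeded every WT sample, and the log2 fold change was 1.32 with a standard error (SE) of 0.299 (edgeR adjusted p = 0.0093). The bin from 32127001, just inside *Mpg*, held 0.119%, 0.120% and 0.136% in WT and 0.459%, 0.390% and 0.260% in D3839. Its log2 fold change was 1.56 (SE 0.367, edgeR adjusted p = 0.011), and the groups again did not overlap. The bin from 32130001, in the body of *Mpg*, held 0.250%, 0.423% and 0.325% in WT and 0.747%, 0.769% and 0.752% in D3839, with a log2 fold change of 1.19 (SE 0.251, edgeR adjusted p = 0.0090). With same-bin pairs left out, this last value was 0.64 and not called (edgeR adjusted p = 0.29), and with each fragment pair counted once, a setting picked with the data in view, it was 0.48 (edgeR adjusted p = 0.18). All 4 calls were lost without D3839 replicate 1, where edgeR called 0 bins in either direction (12 higher and 9 lower at an unadjusted p below 0.05). Without D3839 replicate 3 the bins from 32119001 and 32130001 were not called (edgeR adjusted p = 0.16 and 0.061), and without D3839 replicate 2 the bin from 32127001 was not (edgeR adjusted p = 0.051).

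The bin that fell was the one from 32208001, 57.5 kb downstream of R2 and past *Hbq1a*. It held 0.852%, 0.751% and 1.43% of ends in WT and 0.442%, 0.199% and 0.553% in D3839, without overlap. The log2 fold change was -1.35 (SE 0.294, edgeR adjusted p = 0.0090), and -0.91 relative to all chromosome 11 contacts (edgeR adjusted p = 0.021), the 1 bin that fell on both scales. In bins of 2 kb it was -0.97 and not called (edgeR adjusted p = 0.11).

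At the deleted sites themselves no bin passed the test. The bin of HS-38 held 0.538% ± 0.237 of ends in WT and 0.312% ± 0.0703 in D3839 (SD, n = 3, edgeR adjusted p = 0.20), with overlap. The next bin, from 32139001, held 1.73%, 1.40% and 1.21% in WT and 0.825%, 1.15% and 1.06% in D3839. Here each D3839 sample lay below each WT sample relative to the matrix, at a log2 fold change of -0.52 that did not pass the test (SE 0.201, edgeR adjusted p = 0.20). The bin of HS-39 held 0.658% ± 0.131 and 0.728% ± 0.137 (SD, n = 3). Both bins with 1 bin on either side held 0.859 times the WT share relative to the matrix and 1.16 times relative to all chromosome 11 contacts, with overlap on both scales.

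Landmarks divide the region into 11 segments, drawn after the profile had been seen and therefore given without a test. In *Rhbdf1*, the 14 bins held 0.138%, 0.174% and 0.162% of ends per kb in WT and 0.291%, 0.270% and 0.278% in D3839, which is 1.77 times the WT mean, and 9 of the 14 were higher without overlap, against 12.1% over all tested bins, a count that the choice of the segment helped to set. From the *Rhbdf1* start to the bin before HS-39, a stretch that holds *Mpg*, the share per kb was 0.328% ± 0.0302 in the WT samples and 0.494% ± 0.0386 in D3839 (SD, n = 3), 1.51 times as much. Upstream of *Rhbdf1*, where *Snrnp25* and *Il9r* lie, it was 0.0635% ± 0.00518 and 0.0748% ± 0.00925 (SD, n = 3), 1.18 times as much. The groups did not overlap in any of these 3 segments on either scale, and the ratio of *Rhbdf1* was the largest of the 11.

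Within *Rhbdf1* all 14 bins had a log2 fold change above 0, with a median of 0.94. So did all 13 bins from the *Rhbdf1* start to HS-39, with a median of 0.50, and 59 of the 78 tested bins upstream of R2. The choice of the segments helped to set the first 2 of these counts. In *Rhbdf1*, the bin from 32118001 held 0.286% ± 0.102 of ends in WT and 0.550% ± 0.0714 in D3839 (SD, n = 3), with a log2 fold change of 0.96 (SE 0.299, edgeR adjusted p = 0.087). The sparse bin from 32120001 held 2, 16 and 14 ends in WT and 53, 36 and 37 in D3839 (log2 fold change 1.38, SE 0.578, edgeR adjusted p = 0.20). The gene starts themselves, taken as single bins, overlapped between the groups, with 0.244% ± 0.147 and 0.241% ± 0.0456 at *Rhbdf1*, 0.0759% ± 0.0344 and 0.156% ± 0.0729 at *Mpg*, and 0.0601% ± 0.0358 and 0.0567% ± 0.0181 at *Snrnp25* (SD, n = 3).

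Between the deleted sites and R1 the share per kb was between 0.902% and 1.07% in WT and between 0.860% and 0.948% in D3839, which overlapped relative to the matrix and was 1.23 times higher relative to all chromosome 11 contacts. From R1 to the left-out stretch, a segment that holds HS-29, it was 2.77% ± 0.159 and 3.49% ± 0.0591 (SD, n = 3), higher in every D3839 sample. Most of this came from the bin from 32148001, next to the left-out stretch, which held 4.93%, 3.44% and 4.82% in WT and 7.19%, 6.08% and 6.39% in D3839 (log2 fold change 0.58, SE 0.170, edgeR adjusted p = 0.066). Downstream, the groups overlapped relative to the matrix up to R4 (1.50% ± 0.0794 and 1.52% ± 0.0292 per kb) and from R4 to *Hba-a1* (0.770% ± 0.0356 and 0.764% ± 0.0488, SD, n = 3), while relative to all chromosome 11 contacts both segments were higher without overlap, by 1.37 and 1.34 times. The segment of the adult and theta globin genes held 1.55% ± 0.0995 in the WT samples and 1.33% ± 0.0738 in D3839 (SD, n = 3), which was lower without overlap relative to the matrix, but 1.16 times higher and overlapping relative to all chromosome 11 contacts. From there to HS+48 the share was 0.214% ± 0.0376 and 0.148% ± 0.0148, and beyond HS+48 it was 0.0503% ± 0.0139 and 0.0326% ± 0.00142 (SD, n = 3). These last ratios, 0.691 and 0.647 relative to the matrix, were 0.932 and 0.878 with overlap relative to all chromosome 11 contacts.

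Element by element, windows of 5 bins were compared at 21 positions, with p-values adjusted over them. The HS-29 window, which has 4 bins because the left-out stretch cuts it and which also holds the R1 bin, took 11.8%, 10.8% and 10.6% of ends in WT and 13.9% ± 0.236 (SD, n = 3) in D3839, all above WT (exact permutation test, p = 0.1, adjusted p = 0.26). These are the same 4 bins as the segment from R1 to the left-out stretch, and of the difference of 2.87 percentage points 2.16 lay in the bin from 32148001 and 0.53 in the HS-29 bin itself. The *Mpg* start window went from 0.863% ± 0.199 to 1.42% ± 0.203 (SD, n = 3), also without overlap. Windows of R3 (11.4% ± 0.421 and 10.7% ± 0.0118), *Hba-a2* (9.94% ± 1.07 and 8.22% ± 0.515), *Hbq1a* (5.73% ± 0.925 and 4.71% ± 0.165), HS+44 (0.899% ± 0.0852 and 0.718% ± 0.0305) and HS+48 (0.526% ± 0.0850 and 0.398% ± 0.0614) were lower in every D3839 sample relative to the matrix (SD, n = 3, p = 0.1 for each by an exact permutation test). Relative to all chromosome 11 contacts none of these 5 was lower, with ratios of 1.28 at R3, without overlap, and of 1.12, 1.11, 1.08 and 1.03 at the others, with overlap. The window of *Gm12109*, a pseudogene at the far upstream end, was higher in every D3839 sample, at 0.330% ± 0.0437 against 0.232% ± 0.0334 (SD, n = 3). The other 13 windows, among them those of Rm, *Hba-x*, *Hbq1b*, R1, R4, *Rhbdf1*, *Snrnp25* and *Il9r*, overlapped between the groups relative to the matrix. Relative to all chromosome 11 contacts all of these but that of *Hba-a1* (1.23 times, with overlap) were higher in D3839 without overlap. The ratios in the order named were 1.33, 1.30, 1.19, 1.43, 1.64, 1.86, 2.00 and 1.77.

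In the single bins of the 6 elements no test passed. HS-29 held 0.856% ± 0.269 of ends in WT and 1.38% ± 0.246 in D3839 (SD, n = 3), at a log2 fold change of 0.70 (SE 0.226, edgeR adjusted p = 0.10). *Hbq1a* held 1.69% ± 0.159 and 1.25% ± 0.0980 (SD, n = 3), lower without overlap relative to the matrix (log2 fold change -0.43, edgeR adjusted p = 0.20). R3, Rm, *Hba-x* and *Hbq1b* gave log2 fold changes of 0.04, 0.11, 0.10 and 0.11, with overlap in each.

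The decay with distance was the second measure. Mean ends per kb were taken in bands from 2 to 5, 5 to 10, 10 to 20, 20 to 40 and 40 to 80 kb on each side of R2, and the slope of their log2 values against log2 distance was fitted in each sample. Upstream, the slope was -1.35, -1.31 and -1.27 in WT and -1.28, -1.27 and -1.24 in D3839, with overlap (exact permutation test, two-sided, p = 0.2). Downstream it was -0.486, -0.463 and -0.385 in WT and -0.527, -0.546 and -0.517 in D3839, so that the slope was steeper in every D3839 sample (exact permutation test, two-sided, p = 0.1). Either slope was an imperfect summary, because the fall was not even. With a slope fitted to single bins the upstream difference, 0.0452, turned to -0.0205, and the downstream difference went from -0.0850 to -0.173. With bins within 2 kb of the left-out stretch removed, a setting picked with the data in view, these were 0.138 and -0.0287.

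The bands showed where the curves parted. From 20 to 40 kb upstream, the span that holds the starts of *Mpg* and *Rhbdf1*, ends made up 0.177%, 0.220% and 0.194% per kb in WT and 0.345%, 0.349% and 0.328% in D3839, 1.73 times as much and without overlap (exact permutation test, p = 0.1, adjusted over 10 bands p = 0.20). From 5 to 10 and from 10 to 20 kb upstream, which includes the deleted sites and the end of *Mpg*, the ratios were 0.959 and 1.06 with overlap, and 1.30 and 1.44 without overlap relative to all chromosome 11 contacts. From 2 to 5 kb upstream it was 1.34, and from 40 to 80 kb 1.20, without overlap in either. Downstream the first 3 bands overlapped relative to the matrix, with ratios of 1.05, 0.955 and 1.04, and were higher without overlap relative to all chromosome 11 contacts, at 1.42, 1.30 and 1.41. The band from 20 to 40 kb, with *Hba-x*, *Hba-a1* and *Hbq1b*, was at 0.930, and that from 40 to 80 kb, with *Hba-a2* and *Hbq1a*, at 0.783, both lower without overlap relative to the matrix. Relative to all chromosome 11 contacts these bands were at 1.26, higher without overlap, and 1.06, with overlap.

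**Figure D2:**
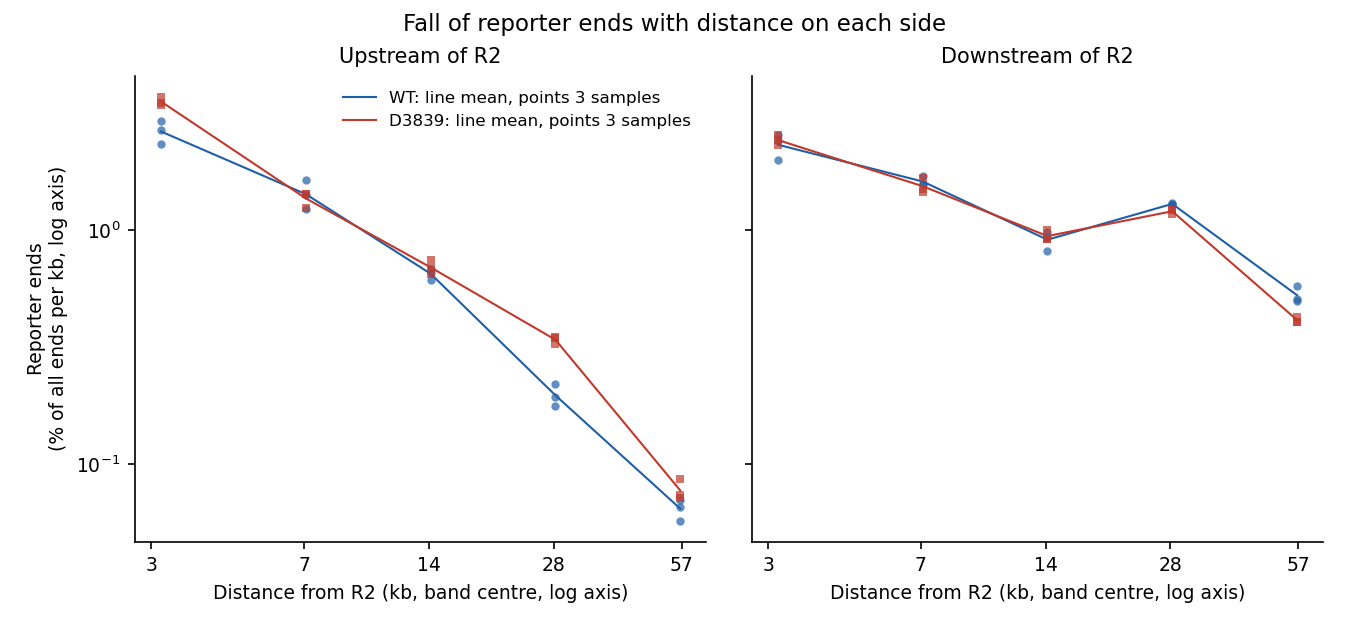
Share of reporter ends per kb (percent of all ends, log axis) in 5 bands of distance from R2 (kb, log axis), upstream on the left and downstream on the right, with points for 3 WT and 3 D3839 samples and lines for their means. Upstream the D3839 points separate from WT in the 20 to 40 kb band (0.340% against 0.197% per kb), while the bands from 5 to 20 kb overlap relative to the matrix total. In the last 2 downstream bands D3839 is lower relative to the matrix total, but at 1.26 and 1.06 times WT relative to all chromosome 11 contacts.

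Insulation was the third measure. At every bin start, contacts between the 20 kb before it and the 20 kb after it were divided by contacts with both ends on one side, so that a low ratio marks a position that few pairs span. Both counts come from the same sample, so the total cancels, and same-bin contacts were left out. In edgeR's quasi-likelihood test of the change of this ratio, 14 of 141 bin starts rose (9.93%) and 6 fell (4.26%) in D3839 at an adjusted p below 0.05. The groups did not overlap at 25 starts that were higher (17.7%) and 14 that were lower (9.93%). Neighbouring starts share most of their pairs, so these counts are not independent positions. At an unadjusted p below 0.05, 25 were higher and 12 lower. Of the 61 starts upstream of R2, 50 had a higher ratio in D3839 (median log2 change 0.30), against 24 of 80 downstream (median -0.09).

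At the deleted sites more pairs spanned the position in D3839, relative to pairs on one side. At the start of the HS-38 bin, 32138001, there were 150, 85 and 190 pairs across and 874, 744 and 912 on one side in WT, and 505, 486 and 403 across against 1499, 1584 and 1560 in D3839. The ratios were 0.172, 0.114 and 0.208 in WT and 0.337, 0.307 and 0.258 in D3839, and the lowest D3839 ratio exceeded the highest WT ratio (exact permutation test, two-sided, p = 0.1). The log2 change was 0.87 (SE 0.182, edgeR adjusted p = 4.3e-04). At the HS-39 bin start it was 0.86 (SE 0.188, edgeR adjusted p = 4.9e-04). At HS-38 it was 0.94 with windows of 10 kb and 0.72 with windows of 40 kb, both called. A limma test of the log2 ratios gave 0.90 (adjusted p = 0.13), and edgeR with the replicate number as a block gave 0.88 (adjusted p = 0.096), neither called.

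These starts belong to a stretch of 12 adjoining starts that rose, from 32128001 to 32139001, which runs from *Mpg* past both deleted sites within *Nprl3*. The log2 changes there were 0.48 to 0.95, and the groups did not overlap at 11 of the 12, against 17.7% of all starts, a count that choosing called starts helped to set. The call at the edge, 32139001, was made in 5 of 13 alternatives, being lost without any one D3839 sample and without WT replicate 2 (0.22), and the other 11 were called in 7 to 11 of 13. Calls at 32128001, 32129001, 32134001 and 32135001 were lost without D3839 replicate 3. Without WT replicate 1 the first 3 of these were lost, without D3839 replicate 2 the first 2, and without WT replicate 2 the last. The value of 0.95, the highest, was at 32132001 near the end of *Mpg*, where the WT ratios were 0.190, 0.165 and 0.180 and the D3839 ratios were 0.344, 0.344 and 0.343 (edgeR adjusted p = 4.9e-04). With windows of 10 kb it was 0.84 (edgeR adjusted p = 0.12) and with each fragment pair counted once 0.63 (edgeR adjusted p = 0.075), neither called. With windows of 10 kb the change at 32128001 and 32129001 turned to -0.01 and -0.11, and 5 starts rose in all, so the length of the stretch goes with the window. Among the 22 starts within 10 kb of the deleted bins the mean WT ratio was lowest at 32128001 (0.136) and the mean D3839 ratio at 32127001 (0.208), the first of the 22. Beyond these 22, at the *Rhbdf1* start, the means were lower still, at 0.129 ± 0.0294 in WT and 0.154 ± 0.0356 in D3839 (SD, n = 3).

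Further single starts passed on either side. At 32112001, inside *Rhbdf1*, the ratio rose from 0.116, 0.108 and 0.102 to 0.279, 0.271 and 0.187 (log2 change 1.17, edgeR adjusted p = 0.023). This rests on 10, 11 and 13 pairs across in WT, and it was called in 4 of 13 alternatives, not among them those without D3839 replicate 1 or 2 or WT replicate 2 or 3. Over the 13 the log2 change ran from 0.23 to 1.78, and with 1 sample left out from 1.06 to 1.34. At 32152001, within the stretch left out around R2, the ratio rose from 0.341 ± 0.0475 to 0.425 ± 0.0131 (SD, n = 3, edgeR adjusted p = 0.048), which was called in 1 of 13 alternatives, that without WT replicate 1.

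Downstream, the ratio fell at *Hbq1a* and at 5 starts between *Hbq1b* and *Hba-a2*. At 32200001, the bin of the *Hbq1a* start and of its match shown above, the ratios were 0.174, 0.167 and 0.184 in WT and 0.117, 0.0917 and 0.135 in D3839, without overlap. The log2 change was -0.62 (SE 0.166, edgeR adjusted p = 0.0036), and -0.71 with pairs of fragments alike in sequence left out (edgeR adjusted p = 0.0059), a setting picked with the data in view. It was called in 7 of 13 alternatives. It was not called with limma, the replicate number as a block, windows of 10 kb, same-bin pairs kept or pairs counted once. Nor was it called without D3839 replicate 2 (-0.48, edgeR adjusted p = 0.13). At the 5 adjoining starts from 32189001 to 32193001 the log2 changes were -0.38 to -0.34. Each of these was called in 3 of 13 alternatives. None was called with limma, the replicate number as a block, windows of 10 kb, same-bin pairs kept, pairs counted once or like fragments left out. Nor was any called without replicate 2 or 3 of either genotype. At *Hbq1b* itself the log2 change was -0.22 and not called (SE 0.115, edgeR adjusted p = 0.21), with overlap.

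At the other elements the ratio did not pass the test. It was 0.456 ± 0.0367 in WT and 0.520 ± 0.0191 in D3839 at R3, where the groups did not overlap, and 0.317 ± 0.0244 and 0.371 ± 0.0254 at HS-29 (SD, n = 3). At Rm and *Hba-x* the log2 changes were 0.07 and -0.04, with standard errors of 0.101 and 0.141. The starts of *Rhbdf1*, *Mpg* and *Snrnp25* gave 0.25, 0.24 and 0.25, with standard errors of 0.281, 0.244 and 0.424, and overlapped. The lowest ratio of all 141 starts was in the same place in both genotypes, 32203001, just past *Hbq1a*, at 0.0735 ± 0.0144 in WT and 0.0696 ± 0.00937 in D3839 (SD, n = 3).

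**Figure D3:**
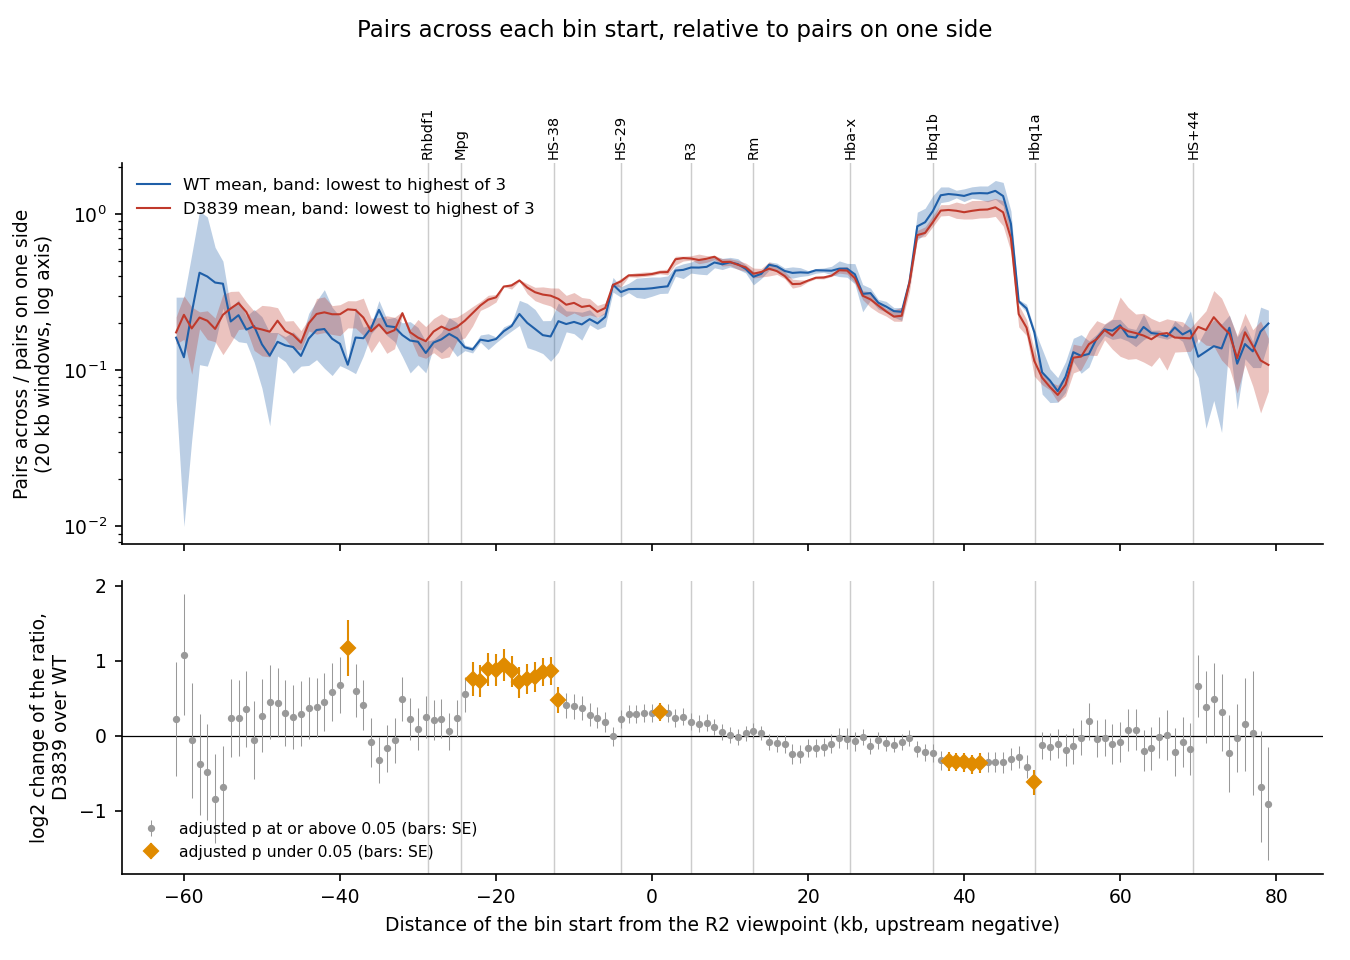
Top, pairs across each bin start over pairs on one side (20 kb windows, log axis) against the distance of the bin start from R2 in kb, as the mean and range of 3 WT and 3 D3839 samples. Bottom, log2 change of this ratio in D3839 over WT from edgeR with standard errors, where diamonds mark the 14 starts that rose and the 6 that fell. The D3839 curve lies above WT from the *Mpg* start past HS-38, where it reads 0.301 against 0.165, and below WT at *Hbq1a*.

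Pairs of elements were the fourth measure, taken as sums of 5 × 5 bins and tested with edgeR together with 358 pairs of 5 kb bins. None of the 15 was called in edgeR, where 4 had an unadjusted p below 0.05, and over the bin pairs 0 rose (0%) and 0 fell (0%), while 32 were higher and 17 lower at an unadjusted p below 0.05 in edgeR's test. In DESeq2 0 rose and 0 fell as well, with 13 and 20 at an unadjusted p below 0.05. The groups did not overlap for 51 bin pairs that were higher (14.2%) and 18 that were lower (5.03%), and for 2 of the 15 element pairs, 1 in each direction. Relative to all chromosome 11 contacts, 3 of the 15 rose (R3 with HS-29, Rm with HS-29 and HS-29 with *Hbq1b*), as did 27 bin pairs, and the median of all bin pairs moved from 0.13 to 0.56. The HS-29 window holds the R1 bin and that of *Hbq1b* the end of *Hba-a1*, so these pairs share bins with the foci of R1 and the adult globin genes. The HS-29 window also holds the bin from 32148001, next to the left-out stretch. Which of its bins the changes of its pairs came from was not tested.

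HS-29 and R3 gave the one pair that was higher without overlap. R3 with HS-29, 9 kb apart, had 122, 104 and 112 contacts in WT and 210, 268 and 255 in D3839, or 1.21% ± 0.250 and 1.72% ± 0.293 of the matrix (SD, n = 3). The shares did not overlap, and the log2 fold change was 0.52 (SE 0.233, edgeR adjusted p = 0.27). Rm with HS-29 had 96, 53 and 59 contacts in WT and 158, 156 and 156 in D3839, with a log2 fold change of 0.56 (SE 0.276, edgeR adjusted p = 0.32) that was 0.94 without WT replicate 1 and 0.32 without WT replicate 3. WT replicate 1, at 1.09%, lay within the D3839 range of 1.05% to 1.17%. HS-29 with *Hba-x*, *Hbq1b* and *Hbq1a* gave 0.34, 0.29 and -0.05, with standard errors of 0.353, 0.244 and 0.342, and all of them overlapped between the groups, the last being 0.40 relative to all chromosome 11 contacts. With 1 sample left out they ran, in that order, from 0.26 to 0.52, from 0.14 to 0.42 and from -0.22 to 0.24.

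For the enhancers R3 and Rm, with each other and with *Hba-x*, the groups overlapped. R3 with Rm held 1.08% ± 0.228 in the WT samples and 1.28% ± 0.220 in D3839 (SD, n = 3), a log2 fold change of 0.24 whose 95% interval runs from a ratio of 0.841 to 1.66. It was 0.68 relative to all chromosome 11 contacts (edgeR adjusted p = 0.066), and from 0.076 without WT replicate 3 to 0.38 without WT replicate 1. For R3 with *Hba-x* it was -0.06 (a ratio from 0.585 to 1.57), or 0.37 relative to all chromosome 11 contacts, and for Rm with *Hba-x* 0.01 (0.561 to 1.81), or 0.44 on that scale. R3 with *Hbq1b* gave 0.14, Rm with *Hbq1b* gave -0.24 and R3 with *Hbq1a* gave -0.43, which were 0.57, 0.21 and 0.0099 relative to all chromosome 11 contacts. With 1 sample left out they ran, relative to the matrix and in that order, from -0.021 to 0.21, from -0.46 to -0.010 and from -0.70 to -0.18. Rm with *Hbq1a* had 20, 26 and 40 contacts in WT and 15, 32 and 17 in D3839, a log2 fold change of -0.96 (SE 0.477, edgeR adjusted p = 0.33) with overlap, or -0.53 relative to all chromosome 11 contacts. It ran from -1.44 to -0.74 with 1 sample left out, and the lowest of its 14 alternatives was -2.39, with none called. Over the 15 pairs the intervals reached from a ratio of 0.269 to 2.15, so equal levels were not shown.

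Of the pairs among *Hba-x*, *Hbq1b* and *Hbq1a*, only that of the theta genes separated the groups. *Hbq1b* with *Hbq1a*, 13.1 kb apart, had 195, 164 and 219 contacts in WT and 248, 173 and 221 in D3839. Relative to the matrix these were 2.22%, 2.07% and 1.80% against 1.68%, 1.30% and 1.49%, without overlap (log2 fold change -0.44, SE 0.217, edgeR adjusted p = 0.32). Relative to all chromosome 11 contacts the log2 fold change was 0.0036, so the levels were about equal. Between 16.4% and 28.7% of these contacts joined fragments alike in sequence, and no other pair of elements held any. *Hba-x* with *Hbq1b* held 0.114%, 0.404% and 0.411% in WT, a spread that contains the D3839 range of 0.155% to 0.238%. *Hba-x* with *Hbq1a* had 13, 17 and 20 contacts in WT and 26, 8 and 13 in D3839.

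**Figure D4:**
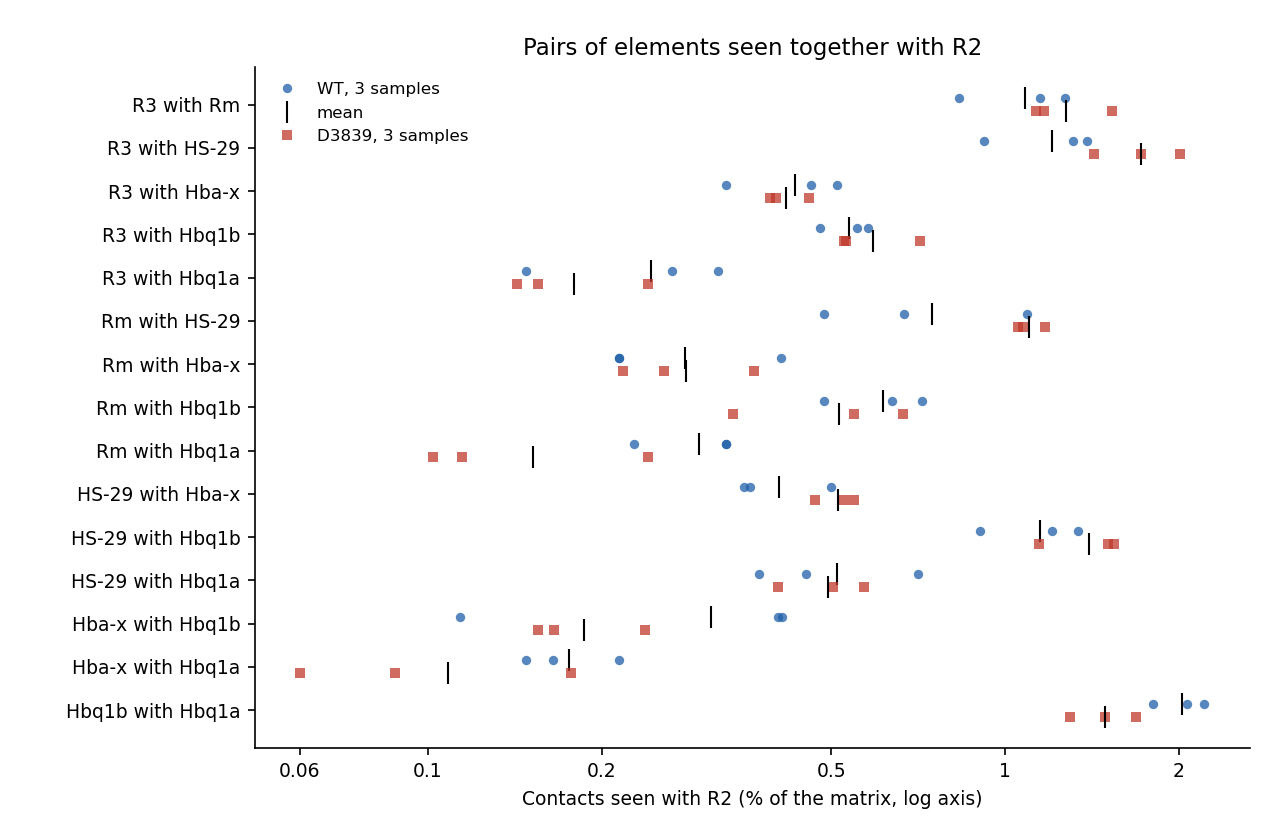
Contacts of each of the 15 pairs of elements as a share of the matrix (percent, log axis), with a point for each of 3 WT and 3 D3839 samples and a bar at each mean. The groups separate for R3 with HS-29 (higher in D3839) and for *Hbq1b* with *Hbq1a*, which is lower relative to the matrix total and level relative to all chromosome 11 contacts, and they overlap for the other 13.

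Pairs were also set against the average of equally spaced bin pairs of the same matrix, as a description without a test. HS-29 with *Hbq1b* stood at 14.2 ± 1.11 times that mean in WT and 16.7 ± 2.13 in D3839, and HS-29 with *Hbq1a* at 11.9 ± 2.00 and 10.7 ± 0.963 (SD, n = 3). Rm with *Hba-x* stood at 0.870 ± 0.346 and 0.959 ± 0.271, and *Hba-x* with *Hbq1b* at 1.26 ± 0.707 and 0.743 ± 0.145 (SD, n = 3). This ratio corrects neither for the distance of either bin from R2 nor for the number of fragments in a window.

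Between segments, the 66 combinations show what the upstream ends were paired with, again as a description, since the segments were drawn after the data were seen. The groups did not overlap in 16 combinations that were higher (24.2%) and 7 that were lower (10.6%). *Rhbdf1* with the stretch upstream of it had 13, 5 and 14 contacts in WT and 48, 60 and 34 in D3839, 3.09 times the share. The stretch from the *Rhbdf1* start to HS-39 met the segment between HS-38 and R1 in 33, 13 and 32 contacts in WT and 113, 99 and 76 in D3839, 2.52 times the share, and the segment from R4 to *Hba-a1* in 13, 6 and 24 and in 63, 41 and 63, 2.76 times the share. With the adult and theta globin genes this stretch had 36, 82 and 58 contacts in WT and 112, 130 and 74 in D3839, 1.16 times the share, with overlap on both scales. *Rhbdf1* met the segment of the adult and theta globin genes in 38, 22 and 39 contacts in WT and 116, 130 and 106 in D3839, 2.41 times the share. All 16 combinations that were higher relative to the matrix were also higher without overlap relative to all chromosome 11 contacts, and all 7 that were lower overlapped there.

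The bins of the deleted sites, each with 1 bin on either side, stood on both sides. With the stretch from the *Rhbdf1* start to HS-39 they had 18, 21 and 52 contacts in WT and 83, 100 and 85 in D3839, 2.10 times the share. With the segment of the adult and theta globin genes they had 32, 36 and 63 contacts in WT and 35, 47 and 16 in D3839, shares of 0.445% ± 0.0778 and 0.233% ± 0.123 (SD, n = 3) that did not overlap relative to the matrix but did relative to all chromosome 11 contacts. With the segment beyond HS+48 they had 4, 5 and 1 contacts in WT and 0, 0 and 1 in D3839, counts at or near the floor. Contacts within the stretch of the deleted sites were 2.06% ± 0.481 of the matrix in WT and 1.49% ± 0.124 in D3839 (SD, n = 3), again lower without overlap only relative to the matrix.

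**Figure D5:**
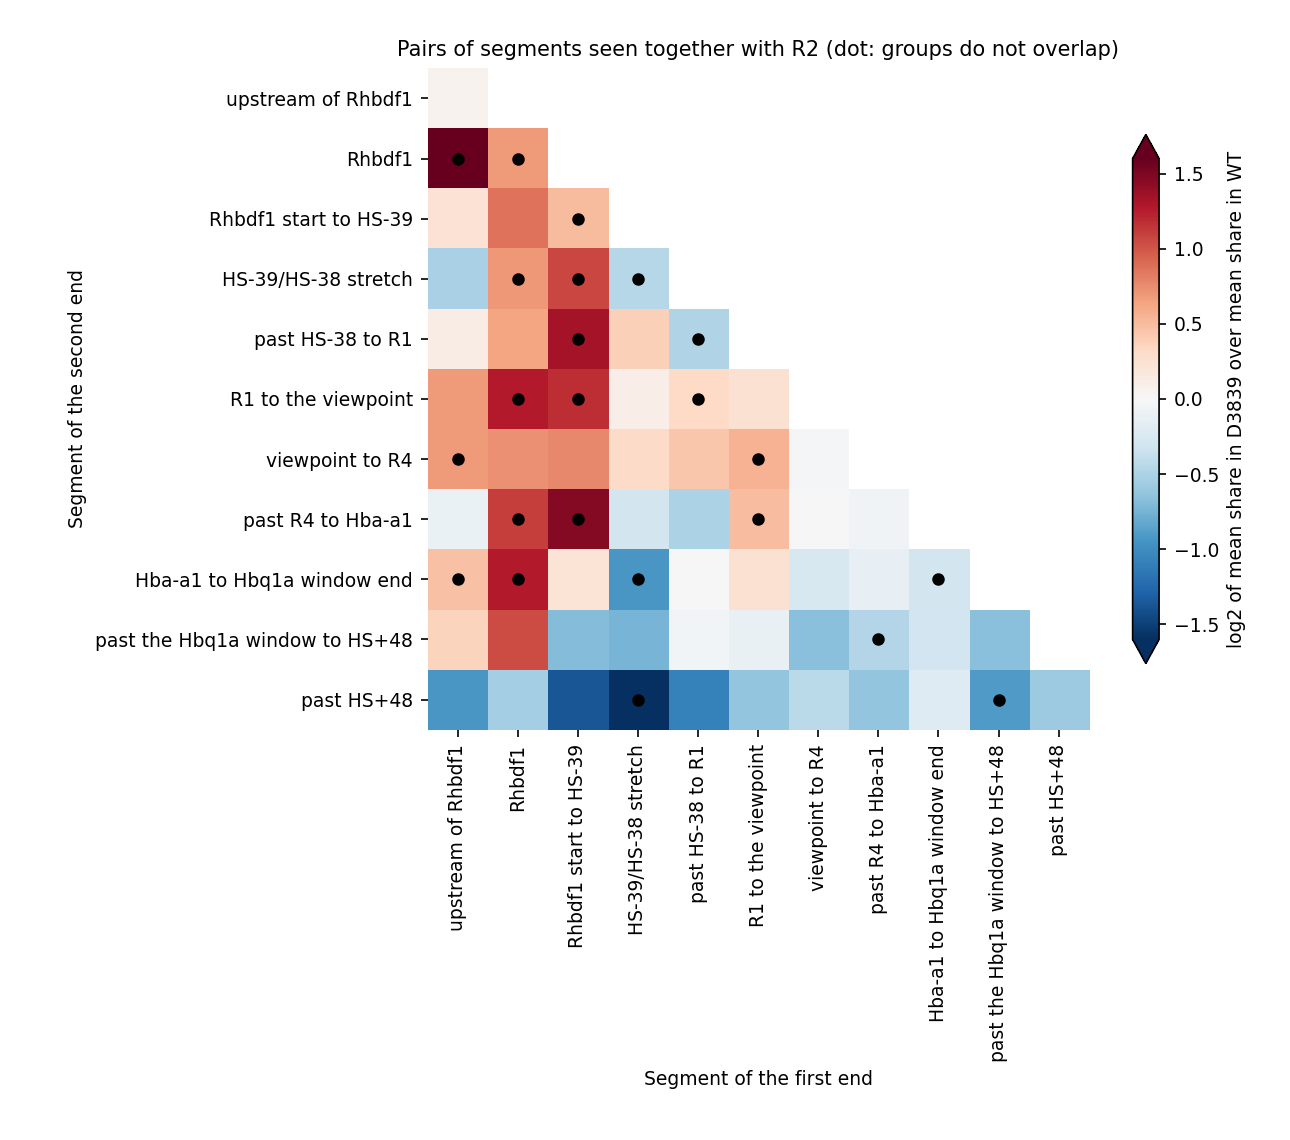
Log2 ratio of the mean share of contacts in D3839 over WT, relative to the matrix, for the 66 combinations of 11 segments, with a dot where the 3 D3839 and 3 WT samples do not overlap. Red cells, 16 of them dotted, gather in the columns of *Rhbdf1* and of the stretch from its start to HS-39. Blue cells, 7 dotted, lie toward the bottom and at the deleted sites, and these 7 are lower relative to the matrix but overlap relative to all chromosome 11 contacts.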

How the data were processed

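Tri-C contacts of the R2 viewpoint were analysed in 3 WT and 3 D3839 biological replicates, grouped by the sample labels. The authors deposited raw counts of distinct contacts, each naming both chromosome 11 fragments (NlaIII, mm9), with no normalization. By the methods, only reads with at least 2 reporters entered the counts. Before that step CCseqBasic mapped the reads. It also dropped duplicate reads from PCR, false ligations and fragments that belong to other probes of the capture pool. The submitters' processing notes name Trim Galore and Bowtie without versions. All 38476 fragments named in the tables equal a fragment cut from the mm9 sequence. No correction for fragments per bin was made, which affects levels set side by side for different positions.

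Tests across bins, starts and pairs used the quasi-likelihood method of edgeR 4.0.16, run under R 4.3.3 (at least 10 counts over 6 samples, library size as the matrix total, Benjamini-Hochberg, threshold 0.05). The insulation model had 12 columns, 2 per sample, with terms for sample, kind of pair and its interaction with D3839. Each SE was derived from the log2 value and its test statistic, and intervals of element pairs are 95% intervals built from them. Single values were compared by two-sided exact permutation tests (python 3.11.15, scipy 1.17.1, numpy 2.4.6). Alternatives used limma 3.58.1 and DESeq2 1.42.0. How often these tests find changes of the sizes reported here was not tested.

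Genes were placed from the GENCODE annotation of the mm9 assembly, the 6 elements from their given coordinates, and R1, R4, HS-38, HS-39, HS+44 and HS+48 by their names in kb from the *Hba-x* start, which may be off by a bin. Fragments were called alike where they lay at least 2 bins apart and shared at least 50% of their 12-base words. Named were these positions and *Gm12109*, all gene starts, and up to 8 called bins, starts or pairs per direction without overlap between groups. The members and lists were chosen with earlier results of these data known. The tables of the *Mpg* viewpoint were not used here.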

Additional observations from a re-analysis of the deposited data

How the results depend on the processing

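Across 672 alternatives, 460 kept the direction and the side of the threshold (for counts of calls, stayed within 1.5 times the reported count, and for values without a test, moved by less than 1 SD), 153 lost a call or lowered a count further, 31 gained a call or raised a count, 24 reversed and 4 moved. Bins in which ends rose, 3 as reported, were 5 in bins of 2 kb, 5 with DESeq2, 5 with bins within 2 kb of the left-out stretch removed, 6 with each fragment pair counted once, 38 with library sizes from all chromosome 11 contacts, 7 with the replicate number as a block, 6 without same-bin pairs and 0 to 7 with 1 sample left out. Bins that fell, 1 as reported, were 0 in bins of 2 kb, 3 with pairs counted once, 2 without same-bin pairs and 0 to 4 with 1 sample left out. Bin starts whose insulation ratio rose, 14 as reported, were 5 with pairs counted once, 7 with limma, 0 with the replicate block, 5 with windows of 10 kb, 24 with windows of 40 kb and 8 to 17 with 1 sample left out. Those that fell, 6 as reported, were 1 with pairs counted once, 0 with limma, 1 without like fragments, 0 with the replicate block, 0 with same-bin pairs kept, 0 with windows of 10 kb, 15 with windows of 40 kb and 0 to 14 with 1 sample left out. Under the replicate block 20 starts were higher and 11 lower at an unadjusted p below 0.05 in edgeR, in a fit with 2 residual degrees of freedom in place of 4. The log2 change at HS-38, 0.87, was 0.90 with limma and 0.88 with the block, neither called, and 0.66 to 1.06 with 1 sample left out. Element pairs that rose, 0 as reported, were 3 on the chromosome 11 scale. Bin pairs that rose, 0 as reported, were 2 with 3 × 3 bins, 5 with pairs counted once, 27 on the chromosome 11 scale, 1 with the block and 0 to 3 with 1 sample left out, and those that fell were 5 with pairs counted once, 1 with the block and 0 to 1. The upstream decay difference, 0.0452, was -0.0205 with 1 kb bins, 0.138 without the nearest bins and 0.0266 to 0.0637 with 1 sample left out, and the downstream one, -0.0850, was -0.173, -0.0287 and -0.106 to -0.0554. The upstream share, 6.25 points higher, was 5.11 without the nearest bins and 6.00 to 6.47 with 1 sample left out.

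Uncalled element pairs changed sign as follows. R3 with *Hba-x* was 0.15 with 3 × 3 bins, 0.37 on the chromosome 11 scale and 0.065 without WT replicate 1. R3 with *Hbq1b* was -0.028 with DESeq2, -0.017 with TMM and -0.021 without D3839 replicate 2, and R3 with *Hbq1a* was 0.0099 on the chromosome 11 scale. Rm with *Hba-x* was -0.16 with DESeq2, -0.15 with TMM, -0.078 with pairs counted once and -0.23 to 0.38 with 1 sample left out, and Rm with *Hbq1b* was 0.20 with 3 × 3 bins and 0.21 on the chromosome 11 scale. HS-29 with *Hbq1a* was 0.13, 0.40 and, with pairs counted once, 0.044, and -0.22 to 0.24 with 1 sample left out, and *Hbq1b* with *Hbq1a* was 0.0036 on the chromosome 11 scale. Insulation at 32128001 and 32129001 was -0.011 and -0.11 with windows of 10 kb. The cause of these changes was not tested.

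Replicate numbers come from the labels, which state no shared litter or day. Deviations of same-numbered samples correlated at 0.0351 to 0.0712, against a mean of -0.0269 for different numbers, with a highest value of 0.0119, and each of the 6 samples correlated best with its own number. That is a hint from the data, not the design, and pairing was not assumed. Removing bins near the viewpoint, counting pairs once and leaving out like fragments were chosen after the data were seen. With 3 samples a group, the exact tests cannot go below 0.1. Of the 15 element pairs, 5 had a sample with under 20 contacts. Labels call the samples biological replicates without naming animals.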
